A study of Mus musculus with 10 samples.

Results

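Spi1, which encodes the haematopoietic transcription factor PU.1, and 9 genes of leukocyte signalling (Vav1, Coro1a, Laptm5, Tyrobp, Csf1r, Rac2, Was, Ptprc and Fcgr3) were examined in early blood and endothelial progenitors with and without Ldb1. The 10 genes were chosen by symbol, with earlier results of these data known, and all 10 had a row among the 21868 genes of the count table. PU.1 is an ETS-family factor that binds purine-rich DNA and activates receptors and signalling genes of myeloid and B-lymphoid cells, including Csf1r. Downstream of such receptors, Vav1 loads GTP onto Rac2, and Was, once activated by the related GTPase Cdc42, drives branching of actin. Spi1 is also switched on in the earliest blood progenitors, before mature leukocytes arise.

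The cells were sorted for Flk1, the VEGF receptor encoded by Kdr that marks progenitors of blood and endothelium, after mouse embryonic stem (ES) cells had been differentiated in suspension as embryoid bodies. The WT group was Ldb1+/+ and the KO group Ldb1-/-, with 4 RNA-seq libraries each and no further treatment named. Ldb1 bridges LIM-domain proteins and DNA-binding factors in transcription complexes, and the KO genotype, as labelled, was already that of the ES cells rather than of blood cells alone. The sources used here give no strain, clone number, allele structure or embryoid body day for the RNA libraries. Each genotype was its own ES cells, so an effect of Ldb1 loss and another difference between the lines cannot be told apart.

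Libraries held 11258493 to 13483294 counts. Within each genotype, library 1 matched library 2 and library 3 matched library 4 nearly to sampling noise. These were added up and counted as 1 sample each, called A and B, so that n = 2 per genotype. The labels do not say whether A and B came from separate cultures. The p-values therefore measure only how far these samples spread, which may be technical. The targeted gene Ldb1 stood at 105 and 113 CPM (counts per 1000000 counts after TMM scaling) in WT samples A and B and at 96.1 and 80.1 CPM in KO, a log2 fold change of -0.31 (SE 0.15, edgeR adjusted p = 0.410). Without the allele's structure, these reads check nothing about the label. Kdr, the gene of the sorted marker, stood at 440 (WT A), 605 (WT B), 236 (KO A) and 78.6 CPM (KO B). Ptprc, the gene of the pan-leukocyte surface marker CD45, had 10 reads over all WT libraries and 12 over all KO libraries, so this defining gene of mature leukocytes was close to absent from both genotypes.

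Part of this set was read at a lower level in KO. Vav1 fell in KO, Spi1 was lower by a similar size without passing the adjusted threshold, and Tyrobp had reads in WT only. Laptm5, Coro1a, Rac2, Fcgr3 and Was differed downward by smaller amounts that did not pass, and Csf1r and Ptprc did not stand lower. Of the 8 members with enough reads to be tested, 1 was lower past an adjusted p of 0.05 and 0 were higher, by edgeR's quasi-likelihood test adjusted over 16785 genes, against 0.125% and 0.0596% of all genes tested. A log2 fold change of -2 or lower was fitted for 2 of the 8, Spi1 and Vav1, against 1.44% of all genes. The members called changed when 1 sample was left out. A group then holds a single sample and the spread comes from the other group alone, so calls in such fits are no support, and lost calls are not read either. By an unadjusted edgeR p under 0.05 they numbered 3 lower and 0 higher, against 7.86% and 7.61% of all genes, and by DESeq2 3 lower (Spi1, Vav1 and Laptm5) and 0 higher, against 3.53% and 3.37%. The median log2 fold change of the 8 was -1.06, beside -0.01 over all genes tested. Low genes passed the read filter mainly through WT, where most of them were higher, so this median is a description only. The members were chosen with earlier results of these data known, so their counts beside the shares of all genes are descriptions too. In bulk samples fewer cells of a type and less RNA per cell cannot be told apart.

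**Figure D1:**
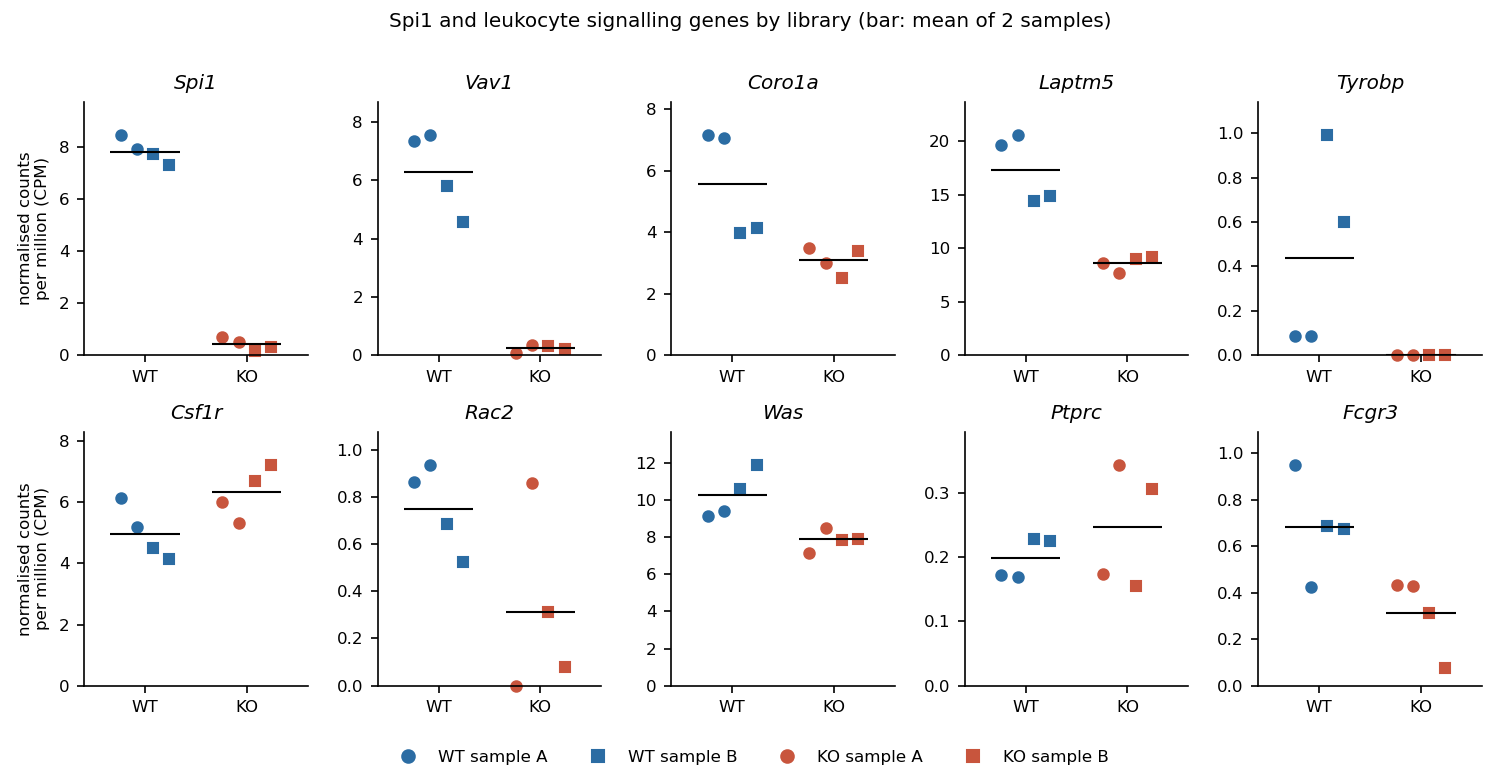
Levels (CPM) of the 10 genes in each of the 8 libraries, with 1 panel per gene, an axis of its own from 0, circles for sample A, squares for sample B and a bar at the mean of the 2 samples. The KO points of Spi1 and Vav1 lie far under all WT points, those of Tyrobp lie at 0, and Csf1r and Ptprc overlap between genotypes.

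Spi1 (ENSMUSG00000002111), on chromosome 2, was read 98, 93, 101 and 97 times in WT libraries 1 to 4 and 8, 6, 2 and 4 times in KO libraries 1 to 4. All WT libraries were high and close to each other, and all KO libraries were low. Levels were 8.15 (WT A), 7.47 (WT B), 0.605 (KO A) and 0.234 CPM (KO B), with means of 7.81 ± 0.480 and 0.419 ± 0.262 CPM (SD, n = 2). The log2 fold change was -4.22 (SE 0.48), an 18.6-fold lower level in KO. It did not pass the edgeR test over all genes (adjusted p = 0.0640). It passed without KO library 1 (edgeR adjusted p = 0.0462), without KO library 3 (0.0438), without a filter on low counts (0.0153) and by DESeq2 (adjusted p = 7.14e-11). Its log2 fold change was -4.28 against WT sample A alone and -4.17 against WT sample B alone. Without KO sample A it was -5.03, and without KO sample B it was -3.68.

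Of the signalling members that act on actin, Vav1 fell, and Rac2, Was and Coro1a did not pass the test. Vav1 (ENSMUSG00000034116), on chromosome 17, encodes the exchange factor of blood cells that couples immune receptors to Rac. It was read 85, 89, 76 and 61 times in WT libraries 1 to 4 and 1, 4, 4 and 3 times in KO libraries 1 to 4. The groups did not overlap, and the WT libraries of sample A stood above those of sample B. The level fell from 6.30 ± 1.6 to 0.245 ± 0.0404 CPM (SD, n = 2), a log2 fold change of -4.65 (SE 0.41, edgeR adjusted p = 0.0476), or 25.1-fold. This call was narrow: the edgeR adjusted p was 0.0613 without KO library 2 and 0.0802 with the replicate number as a block. The log2 fold change stayed between -4.90 and -4.37 in every left-out fit.

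Rac2 (ENSMUSG00000033220), on chromosome 15, is the Rac GTPase of blood cells and a target of Vav1. Its reads were 10, 11, 9 and 7 in WT libraries 1 to 4 and 0, 10, 4 and 1 in KO libraries 1 to 4. KO library 2 lay inside the WT range and KO library 1 held no read, although both belong to KO sample A. The depth-scaled WT to KO ratio was 2.47 with a 95% exact interval of 1.32 to 4.84, which covers counting error only. The log2 fold change of -1.25 (SE 0.56, edgeR adjusted p = 0.373) was -0.69 without KO library 1 and -2.50 without KO library 2.

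Was (ENSMUSG00000031165), on chromosome X, encodes the Wiskott-Aldrich syndrome protein, which activates the actin-branching Arp2/3 complex in blood cells. It stood at 9.26 (WT A), 11.2 (WT B), 7.82 (KO A) and 7.96 CPM (KO B). The genotypes did not overlap, yet the difference was small (log2 fold change -0.38, SE 0.22, edgeR adjusted p = 0.509). Non-overlap in this direction was common, at 22.4% of all genes tested. Coro1a (ENSMUSG00000030707), on chromosome 7, encodes coronin-1A, an actin-binding protein of leukocytes. It stood at 7.08 (WT A), 4.04 (WT B), 3.24 (KO A) and 2.97 CPM (KO B), so WT sample B lay nearer to the KO samples than to WT sample A. Its log2 fold change was -0.84 (SE 0.36, edgeR adjusted p = 0.357). Against WT sample A alone it was -1.19, and against WT sample B alone it was -0.39.

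Laptm5 (ENSMUSG00000028581), on chromosome 4, encodes a lysosomal membrane protein of haematopoietic cells that dampens antigen-receptor signalling. It was the member with the highest level per transcript length in both genotypes. Levels were 20 (WT A), 14.6 (WT B), 8.12 (KO A) and 9.17 CPM (KO B). Every KO library was below every WT library, and the mean log2 fold change was -1.0 (SE 0.23, edgeR unadjusted p = 0.00611, adjusted p = 0.141). It was called by DESeq2 (adjusted p = 0.0177). Its log2 fold change was -1.20 against WT sample A alone and -0.76 against WT sample B alone. A noncoding gene model, Gm38599, overlaps Laptm5, and no strand setting for the counting was at hand, so its reads cannot be told apart from those of Laptm5.

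The upstream sequence of 6 members was held by RefSeq's promoter table (GRCm38.p6): Vav1, Laptm5, Coro1a, Was, Ptprc and Fcgr3. The windows that hold a PU box are shown for the called gene Vav1, for Laptm5 and Fcgr3, which did not pass, and for Ptprc, which was not lower in KO, beside that of Coro1a, which holds none. Each is the 250 bases before the most upstream annotated start, 5′ to 3′ on the gene's strand, in capitals where it matches GAGGAA, the core of the PU box bound by PU.1, on either strand (TTCCTC on the other).
Vav1, chr17:57278850-57279099, plus strand: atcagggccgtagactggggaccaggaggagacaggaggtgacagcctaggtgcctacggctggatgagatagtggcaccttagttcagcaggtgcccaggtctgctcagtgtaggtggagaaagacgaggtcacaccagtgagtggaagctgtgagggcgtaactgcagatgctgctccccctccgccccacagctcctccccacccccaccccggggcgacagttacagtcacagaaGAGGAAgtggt
Laptm5, chr4:130913066-130913315, plus strand: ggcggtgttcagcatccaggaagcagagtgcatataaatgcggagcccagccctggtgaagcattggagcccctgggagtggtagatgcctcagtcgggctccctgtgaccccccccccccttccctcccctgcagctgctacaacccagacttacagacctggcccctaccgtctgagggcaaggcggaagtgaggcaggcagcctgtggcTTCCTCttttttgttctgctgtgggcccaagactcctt
Fcgr3, chr1:171059404-171059653, minus strand: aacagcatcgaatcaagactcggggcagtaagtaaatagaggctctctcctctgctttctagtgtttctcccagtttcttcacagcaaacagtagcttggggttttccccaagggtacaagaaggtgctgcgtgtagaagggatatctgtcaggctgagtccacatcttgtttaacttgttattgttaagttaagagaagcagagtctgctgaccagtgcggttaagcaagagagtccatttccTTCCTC
Ptprc, chr1:138175306-138175555, minus strand: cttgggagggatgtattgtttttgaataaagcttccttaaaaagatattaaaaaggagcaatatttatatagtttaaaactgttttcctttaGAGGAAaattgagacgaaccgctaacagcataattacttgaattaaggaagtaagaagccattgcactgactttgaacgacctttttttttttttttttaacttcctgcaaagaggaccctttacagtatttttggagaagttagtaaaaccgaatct
Coro1a, chr7:126704817-126705066, minus strand: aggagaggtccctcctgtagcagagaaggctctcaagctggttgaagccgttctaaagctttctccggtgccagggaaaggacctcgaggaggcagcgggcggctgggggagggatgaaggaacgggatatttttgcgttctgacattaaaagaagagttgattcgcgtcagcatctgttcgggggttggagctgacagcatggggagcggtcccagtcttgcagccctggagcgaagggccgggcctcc
The match began 11 bases before the start in Vav1, 38 in Laptm5, 6 in Fcgr3 and 158 in Ptprc, counted from the match's upstream end. Over all 9 windows of the 6 genes (Ptprc, Fcgr3 and Coro1a have 2 windows each, which overlap in the first 2 of these genes), 5 held GAGGAA, beside 23.3% of 32851 windows of the same length in the table. The 2 windows of Fcgr3 hold the same match, so the matches lay in 4 of the 6 genes. The GATA-factor motif AGATAA was in 1 of the 9 (Ptprc), beside 9.99%, and the E-box CANNTG, which is the same on both strands, was in 5 of the 9, beside 66.2%. The printed matches of GAGGAA do not overlap an AGATAA or a CANNTG. Letters in a window are a description and show neither binding nor a cause.

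The receptor members showed no common direction. Csf1r (ENSMUSG00000024621), on chromosome 18, encodes the receptor for the macrophage growth factors Csf1 and Il34. It was read 71, 61, 59 and 55 times in WT libraries 1 to 4 and 69, 62, 86 and 94 times in KO. Libraries overlapped between genotypes. The means were 4.97 ± 0.941 CPM in WT and 6.34 ± 0.965 CPM in KO (SD, n = 2), a log2 fold change of 0.35 (SE 0.28, edgeR adjusted p = 0.649). Noncoding models (Mir6983 and Gm52352) overlap it.

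Of the ligands of Csf1r, Csf1 rose in KO and Il34 did not pass the edgeR test. Csf1 rose, at 27.1 (WT A), 34.6 (WT B), 105 (KO A) and 132 CPM (KO B) (log2 fold change 1.94, SE 0.19, edgeR adjusted p = 0.0493). This call was lost without KO library 1 (0.0505) and with the replicate number as a block (0.0732). With 1 sample left out, the log2 fold change of Csf1 stayed between 1.77 and 2.13. Il34, named after its values were seen, stood at 1.71 (WT A), 1.96 (WT B), 4.75 (KO A) and 4.57 CPM (KO B) (1.34, SE 0.29, edgeR adjusted p = 0.126, DESeq2 adjusted p = 0.0417).

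Tyrobp (ENSMUSG00000030579), on chromosome 7, encodes DAP12, an ITAM adaptor that signals for many myeloid and natural killer cell receptors. Its reads were 1, 1, 13 and 8 in WT libraries 1 to 4 and 0 in each KO library. WT sample B carried 21 of the 23 WT reads, so the gene was mainly read in that sample. Taking the WT reads as exact, without their counting error, and 3 reads over the KO group as the floor of a count of 0, it was at least 7.67-fold lower in KO, at least 13.2-fold against WT sample B alone, and at least 4.16-fold or 3.52-fold with KO sample B or KO sample A alone. Against the 2 reads of WT sample A alone no fold can be given. It had too few reads for the filtered test, and without a filter on low counts its edgeR adjusted p was 0.303. It passed the read filter only in fits where a group held a single sample, through WT sample B, where it was high. A call in such a fit is no support.

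Fcgr3 (ENSMUSG00000059498), on chromosome 1, encodes a low-affinity receptor for IgG that signals through the ITAM chain Fcer1g. It was read 11, 5, 9 and 9 times in WT and 5, 5, 4 and 1 times in KO, and the libraries overlapped at the low end of WT. The depth-scaled ratio of WT to KO was 2.27 (95% exact interval 1.20 to 4.48), and the log2 fold change was -1.12 (SE 0.53, edgeR adjusted p = 0.407). The inhibitory relative Fcgr2b, whose extracellular part is nearly the same so that reads may be split, was read 23 times in WT and 3 times in KO, a depth-scaled ratio of 7.67 (95% exact interval 2.32 to 39.9). Ptprc (ENSMUSG00000026395), on chromosome 1, encodes the receptor tyrosine phosphatase CD45. It was read 2, 2, 3 and 3 times in WT and 2, 4, 2 and 4 times in KO, with a depth-scaled WT to KO ratio of 0.834 (95% exact interval 0.323 to 2.11), so a difference was not detectable at this depth.

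Levels per kilobase of transcript allow the members to be set in order. In WT the mean levels were 14.3 CPM per kilobase for Laptm5, 5.73 for Spi1, 5.01 for Was, 3.18 for Coro1a, 2.20 for Vav1, 1.28 for Csf1r, 0.781 for Tyrobp, 0.593 for Rac2, 0.520 for Fcgr3 and 0.0380 for Ptprc. Spi1 and Was overlapped between samples, as did Coro1a and Vav1, Csf1r and Tyrobp, Tyrobp and Rac2, and Rac2 and Fcgr3, so these neighbours were not apart beyond their spread. In KO, Spi1 moved from rank 2 to rank 5 at 0.308 CPM per kilobase, where its samples overlapped those of Rac2 and Fcgr3 at ranks 6 and 7. Vav1 moved from rank 5 to rank 8 at 0.0853. Csf1r moved up from rank 6 to rank 4 at 1.64 CPM per kilobase, where it overlapped Coro1a at 1.78.

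The leukocyte form of each family was then set beside its relatives, from a list of 19 genes. Some relatives are widely expressed, and others, such as Spib and Spic, are leukocyte genes too. None of the 17 tested relatives passed the edgeR test over all genes, while an unadjusted p below 0.05 was reached by 2 that stood lower and 2 that stood higher (7.86% and 7.61% of all genes). DESeq2 made 2 calls, both lower (3.53% and 3.37% of all genes). Their median log2 fold change was 0.17, and 5 of the 17 were below 0, against 51.3% of all genes tested. Per kilobase the gap between relatives could be wide: in WT the ubiquitous Rac1 had a mean level of 113 CPM per kilobase and Rac2 of 0.593.

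The PU.1 relatives did not share the low KO level of Spi1. Spib, an ETS factor of B and dendritic cells, stood at 12.5 (WT A), 12.4 (WT B), 16.8 (KO A) and 15.7 CPM (KO B) (log2 fold change 0.38, SE 0.17, edgeR adjusted p = 0.387). Spic, an ETS factor of red pulp macrophages, stood at 53.3 (WT A), 52.7 (WT B), 57.0 (KO A) and 46.2 CPM (KO B) (-0.04, SE 0.15). Of the summed level per kilobase of these 3 genes, Spi1 made up 14.2% in WT and 0.872% in KO, and Spic 74.8% and 82.9%. Spic was thus the most abundant PU.1-subfamily transcript in both genotypes.

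In the Vav family, Vav1 made up 12.0% of the summed level per kilobase in WT and 0.554% in KO. The widely expressed Vav2 stood at 35.6 (WT A), 46.8 (WT B), 46.0 (KO A) and 45.7 CPM (KO B) (log2 fold change 0.15, SE 0.18, edgeR adjusted p = 0.774), and was -0.04 against WT sample B alone. Vav3 stood at 21.0 (WT A), 22.5 (WT B), 12.4 (KO A) and 8.74 CPM (KO B), below WT in every library, without passing by edgeR (-1.04, SE 0.23, adjusted p = 0.127), while DESeq2 called it (0.00764). The receptor phosphatase gene Ptpre, a relative of Ptprc, had the lowest log2 fold change among the tested relatives, with levels of 13.2 (WT A), 13.5 (WT B), 5.83 (KO A) and 3.75 CPM (KO B) (-1.48, SE 0.29, edgeR adjusted p = 0.112, DESeq2 adjusted p = 0.00135).

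None of the remaining relatives passed the edgeR test. Laptm4a, a lysosomal protein gene related to Laptm5 and the tested relative with the highest log2 fold change, stood at 192 (WT A), 242 (WT B), 286 (KO A) and 459 CPM (KO B) (log2 fold change 0.78, SE 0.27, edgeR adjusted p = 0.262), and Laptm4b at 0.03 (SE 0.14). Among coronins, Coro1b stood at 0.39 (SE 0.15), Coro1c at 0.17 (SE 0.12) and Coro7 at 0.24 (SE 0.16). Among Rac-type GTPases, Rac1 stood at 0.22 (SE 0.14), Rac3 at -0.14 (SE 0.37) and Rhog at -0.02 (SE 0.18). Wasl, the ubiquitous counterpart of Was, stood at 0.20 (SE 0.12) and the phosphatase gene Ptpra at 0.20 (SE 0.14). The activating IgG receptor genes Fcgr1 and Fcgr4 stood at 0.23 (SE 0.42) and 0.01 (SE 0.29), and Hcst, the adaptor gene next to Tyrobp, had 2 reads in WT and 1 in KO. The direction turned for Vav2, Spic, Laptm4b, Rac3, Rhog, Fcgr1 and Fcgr4 when a library or sample was left out.

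**Figure D2:**
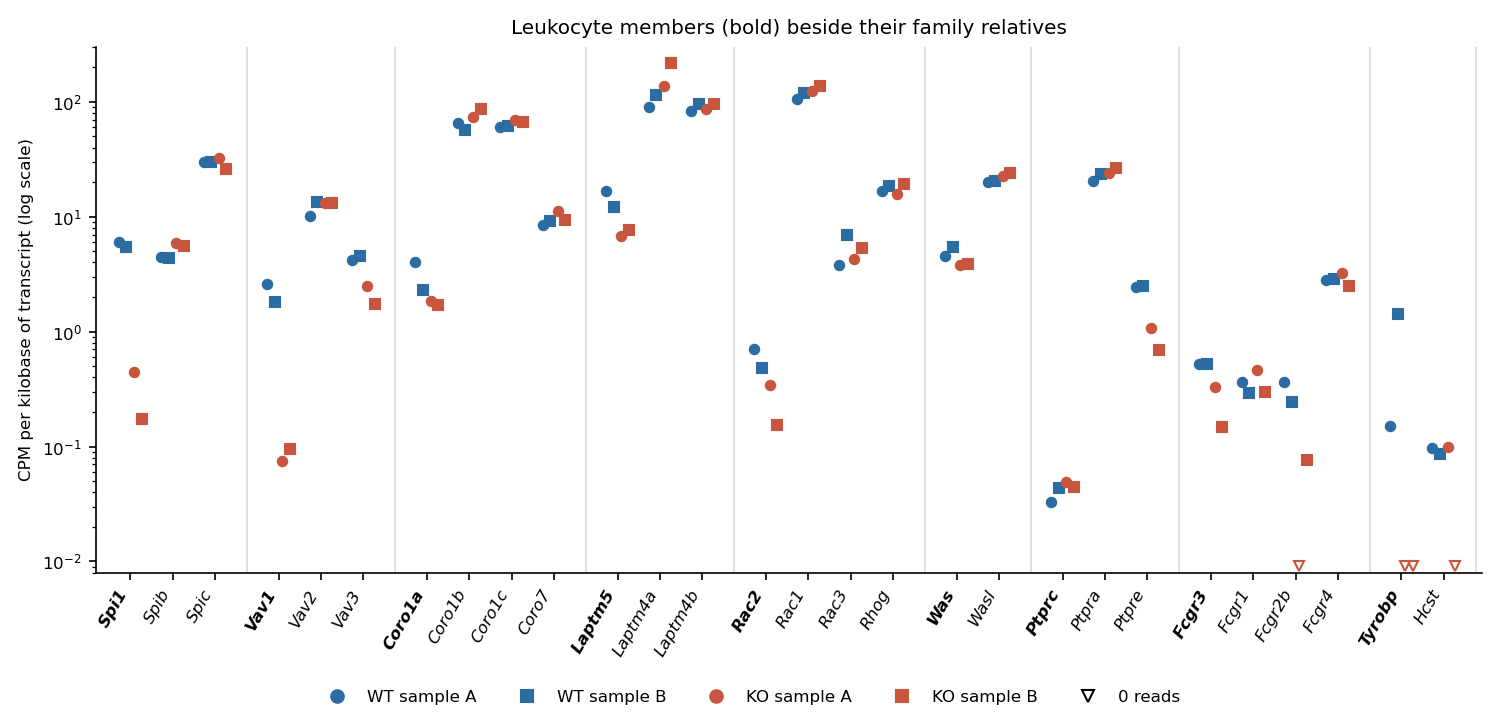
Level per kilobase of transcript (CPM per kilobase, log axis) in each of the 4 samples for the members (bold) and their relatives, in blocks by family, with WT in blue, KO in red and open triangles for samples with 0 reads. The KO levels of Spi1 and Vav1 lie more than 10 times below those of WT, whereas Spib, Spic and Vav2 stay near their WT levels.

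**Figure D3:**
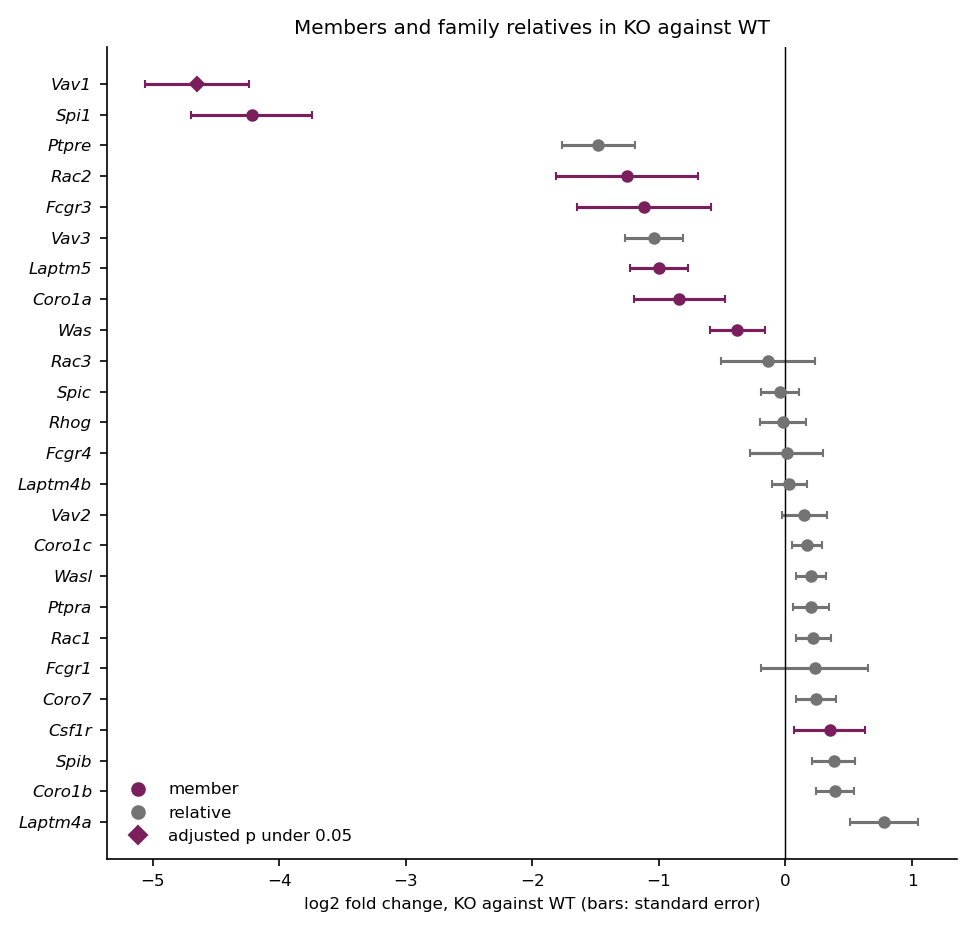
Log2 fold change of KO against WT with its standard error for the 8 tested members (purple) and 17 tested relatives (grey), in order of size. Vav1 (diamond) is past the adjusted threshold, Spi1 lies beside it, and all relatives lie between -1.48 and 0.78.

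Further genes of these pathways were taken from 5 lists with 129 distinct entries, of which 121 had a row and 102 were tested. By edgeR 1 was lower and 1 higher past the threshold over all genes, namely Fermt3 and Csf1 (0.125% and 0.0596% of all genes). DESeq2 gave 17 calls in the lower direction and 6 in the higher (3.53% and 3.37% of all genes), and edgeR without adjustment 33 and 9 (7.86% and 7.61% of all genes), so that the higher counts lay near the shares of all genes or less than 2 times above them. The counts rest on which samples are used. With 1 sample left out they changed widely for these lists and for all genes, since a group then holds a single sample, so such counts are no support. The median log2 fold change was -0.23, beside -0.01 over all genes. The medians of these lists, like that of the members, cover the genes that passed the read filter and are descriptions only. The lists were also chosen with earlier results of these data known, so their counts beside the shares of all genes are descriptions.

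Among factors that regulate or work with PU.1, 0 of 20 tested passed by edgeR, 6 were lower and 1 higher at an unadjusted p below 0.05 (7.86% and 7.61% of all genes), DESeq2 calling 4 and 0 (3.53% and 3.37% of all genes), with a median of -0.12. The abundant members Ets1 and Jun had log2 fold changes of -0.48 (SE 0.16) and 0.04 (SE 0.37), the sign of Jun turning with the sample left out. Named after their values were seen, Runx1, a direct activator of Spi1 in blood progenitors, stood at 12.3 (WT A), 24.5 (WT B), 7.69 (KO A) and 10.7 CPM (KO B) (-1.01, SE 0.39, edgeR adjusted p = 0.317, DESeq2 adjusted p = 0.145). Gata1, an erythroid factor that antagonises PU.1, stood at -2.02 (SE 0.31, edgeR adjusted p = 0.100, DESeq2 adjusted p = 3.48e-05). Irf4, a partner of PU.1 on DNA, had 17 reads in each genotype, and Cebpa, a factor of granulocyte formation, a log2 fold change of 0.08 (SE 0.49).

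Of 25 tested immunoreceptor signalling genes 0 passed by edgeR. At an unadjusted p below 0.05, 9 were lower and 1 higher (7.86% and 7.61% of all genes), and DESeq2 called 4 and 0 (3.53% and 3.37% of all genes). The median log2 fold change was -0.41, with 21 of the 25 below 0, against 51.3% of all genes. The abundant phospholipase gene Plcg2 and adaptor gene Grb2 stood at 0.15 (SE 0.19), with a sign that turned without 1 sample, and -0.38 (SE 0.12). Named after their values were seen, Sla, the adaptor that restrains antigen-receptor levels, was read 572 times in WT and 4 times in KO (edgeR adjusted p = 0.0749, DESeq2 adjusted p = 6.06e-15), or 143 times as often by depth (95% exact interval 55.6 to 527). Sla lies inside the gene model of Tg, so its reads are uncertain without strand. The tyrosine kinase gene Btk was read 51 times in WT and 3 times in KO (ratio 17, 95% exact interval 5.50 to 85.2). Lcp2, which encodes the adaptor SLP-76 that works with Vav1, stood at 7.73 (WT A), 11.5 (WT B), 3.02 (KO A) and 2.15 CPM (KO B) (log2 fold change -1.90, SE 0.34, edgeR adjusted p = 0.110, DESeq2 adjusted p = 0.000485).

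Among leukocyte actin regulators and related genes, Fermt3, the integrin activator kindlin-3, fell, at 28.3 (WT A), 24.6 (WT B), 3.67 (KO A) and 2.15 CPM (KO B) (log2 fold change -3.19, SE 0.31, edgeR adjusted p = 0.0493). The call was lost with the replicate number as a block (0.0768). With 1 sample left out, the log2 fold change of Fermt3 stayed between -3.62 and -2.85. The other 25 of 26 tested did not pass, while of all 26 there were 7 lower and 2 higher at an unadjusted p below 0.05 (7.86% and 7.61% of all genes), DESeq2 calling 4 and 2 (3.53% and 3.37% of all genes), with a median of -0.05. The ubiquitous genes Cdc42 and Pfn1 stood at 0.33 (SE 0.14) and -0.16 (SE 0.15). Gene models overlap Fermt3 (Trpt1) and Pfn1 (Eno3).

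Leukocyte surface genes had a median of -0.82 over 16 tested genes, of which 0 passed by edgeR, 8 were lower and 0 higher at an unadjusted p below 0.05 (7.86% and 7.61% of all genes), DESeq2 calling 4 and 0 (3.53% and 3.37% of all genes). Itgam, the integrin chain CD11b of myeloid cells, stood at 45.0 (WT A), 50.6 (WT B), 41.8 (KO A) and 54.2 CPM (KO B) (0.01, SE 0.18), with a sign that turned when a library was left out. Its partner chain Itgb2, named after its values were seen, stood at 2.94 (WT A), 1.92 (WT B), 0.302 (KO A) and 0.585 CPM (KO B) (-2.43, SE 0.48, edgeR adjusted p = 0.115, DESeq2 adjusted p = 0.0236). The abundant surface gene Emb stood at 136 (WT A), 354 (WT B), 191 (KO A) and 130 CPM (KO B) (-0.62, SE 0.52). Its sign turned against WT sample A alone, at 0.24, and it was -1.15 against WT sample B alone. Macrophage and granulocyte genes stood in both directions, with a median of 0.01 over 15 tested genes. Csf1 rose, and 3 were lower and 5 higher at an unadjusted p below 0.05 (7.86% and 7.61% of all genes), DESeq2 calling 1 and 4 (3.53% and 3.37% of all genes). The abundant genes Lgmn and Cyba stood at 0.42 (SE 0.20) and 0.88 (SE 0.16), Cyba staying between 0.72 and 1.06 when 1 sample was left out. Lyz2, a lysozyme gene of myeloid cells, was read 28 times in WT and 0 times in KO. It was at least 9.34-fold lower with the floor of 3 reads over the KO group and the WT reads taken as exact. Lyz2 and its near-identical neighbour Lyz1, with 17 reads in WT and 0 in KO, may share reads, and both were named after their values were seen. Adgre1, the gene of the macrophage marker F4/80, had 0 reads in WT and 2 in KO and was likewise named after its values. Other macrophage genes of the list, also named after their values were seen, stood the other way. Aif1 had 6 reads in WT and 44 in KO (log2 fold change 2.86, SE 0.50, edgeR adjusted p = 0.108). Mrc1, the mannose receptor gene, had 107 reads in WT and 418 in KO (2.05, SE 0.65, edgeR adjusted p = 0.240, DESeq2 adjusted p = 0.0275), at 13.5 CPM in KO sample A and 4.14 CPM in KO sample B.

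**Figure D4:**
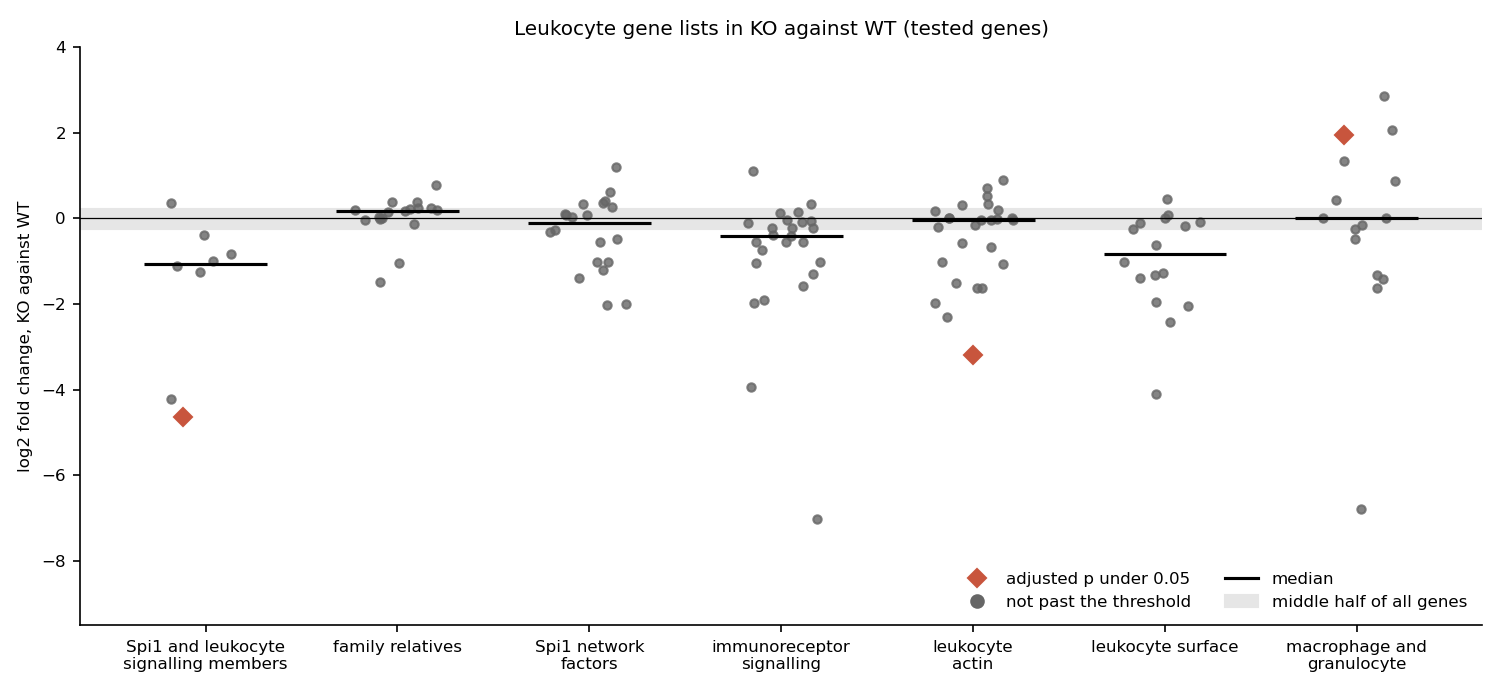
Log2 fold change of KO against WT for the tested genes of each list, 1 point per gene, with a bar at the list's median, diamonds for an adjusted p under 0.05 and a grey band for the interquartile range of all genes tested (-0.25 to 0.21). Members, leukocyte surface and immunoreceptor genes have medians below the band, and the lowest point of the macrophage list is Lyz2, whose fitted value rests on 0 KO reads and is no bound.

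The genes whose pattern over the 4 samples was most like that of Spi1, by the Euclidean distance of log2 CPM centred on each gene's own mean, were Ctse (distance 0.264), Scn11a (0.355), Itga2b (0.556), Nfe2 (0.596) and Il10ra (0.658), among 14865 genes ranked. They encode an aspartic protease, a sodium channel, the integrin CD41, an erythroid and megakaryocytic factor and the interleukin-10 receptor. Ctse stood at 17.9 (WT A), 18.2 (WT B), 1.64 (KO A) and 0.546 CPM (KO B), with KO sample B the lowest as for Spi1. Scn11a stood at 2.60 (WT A), 2.34 (WT B), 0.216 (KO A) and 0.0390 CPM (KO B). Itga2b fell, at 53.2 (WT A), 56.8 (WT B), 3.46 (KO A) and 2.65 CPM (KO B). In all of these genes both WT samples lay close together and far above KO, as the choice by likeness to Spi1 requires. Nfe2 fell, at 6.87 (WT A), 8.38 (WT B), 0.432 (KO A) and 0.312 CPM (KO B). Il10ra stood at 2.26 (WT A), 2.15 (WT B), 0.173 (KO A) and 0.0780 CPM (KO B). Of the other members Vav1 was nearest, at rank 13 (distance 1.03), and Csf1r farthest, at rank 12425 (4.55). Itga2b and Nfe2 passed the edgeR test (adjusted p = 0.0102 and 0.0476), and Ctse (0.0867), Scn11a (0.0967) and Il10ra (0.0683) did not. The DESeq2 adjusted p was 3.46e-13 for Ctse, 0.000522 for Scn11a and 0.000496 for Il10ra. The genes were picked by the same values that were tested, so these p-values are descriptions and no support. The call of Nfe2 was lost without KO library 2 (edgeR adjusted p = 0.0627) and with the block (0.0802). With 1 sample left out, the log2 fold change stayed between -4.37 and -3.99 for Itga2b and between -4.58 and -4.13 for Nfe2.

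Of the erythroid and megakaryocyte markers tested, 1 of 6 (Hba-x) and 1 of 3 (Itga2b) passed the edgeR test as lower in KO, against 0.125% of all genes. The summed level of 7 megakaryocyte markers was 57.3 (WT A), 61.6 (WT B), 4.89 (KO A) and 3.94 CPM (KO B), of which Itga2b alone made up 53.2, 56.8, 3.46 and 2.65 CPM. Among the low markers, Gp5, Pf4 and Gp1bb had 32, 17 and 2 reads in WT and 0 in KO, while Gp9 had 6 reads in each genotype and Ppbp 8 in WT and 10 in KO. That of 7 erythroid markers was 24.1 (WT A), 41.1 (WT B), 2.42 (KO A) and 1.99 CPM (KO B), where Hbb-bh1 was at 0. The summed level of 6 measured lymphoid and mast cell markers was 7.35 (WT A), 3.36 (WT B), 2.99 (KO A) and 3.00 CPM (KO B). For 8 endothelial markers it was 745 (WT A), 381 (WT B), 487 (KO A) and 204 CPM (KO B), which overlapped between genotypes. The part of these lineages in the levels of the members was not tested.

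Spread within a genotype was unequal among these genes. WT sample A had a summed level of 6 pluripotency markers of 1170 CPM and WT sample B of 300 CPM, beside 574 CPM (KO A) and 660 CPM (KO B). The 6 primitive streak markers ran the other way in WT, at 16.6 and 178 CPM, beside 50.5 and 17.9 CPM in KO. Spi1 differed little between the WT samples (log2 of B over A -0.12), and Vav1 (-0.52), Laptm5 (-0.46) and Coro1a (-0.80) were lower in B. Between the KO samples the log2 of B over A was -1.12 for Spi1, on 14 and 6 reads. It was 0.25 for Vav1, 0.17 for Laptm5 and -0.12 for Coro1a. Of the 102 pathway genes tested, 13 were lower in WT sample B than in WT sample A by a log2 of 1 or more and 6 were higher, 12.7% and 5.88%, against 5.73% and 3.68% of all genes. Among those lower in B, named after its values were seen, was Nckap1l of the leukocyte actin list, at 11.2 CPM (WT A) and 3.09 CPM (WT B). The part of the differing differentiation markers in these differences was not tested.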

How the data were processed

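The authors deposited whole-number counts of reads for each Ensembl gene in the 8 RNA-seq libraries of sorted WT and KO cells, and beside them a transcript length in bases, per the file headers. Build mm9 and the tool DESeq are named in the submitters' processing notes. How reads were aligned and counted, with which strand setting and gene models, is not given in the sources used. An Ldb1 ChIP-seq peak list of the series was not used here, since no annotation of its build was at hand. Of 21868 genes, 20362 were paired with a symbol.

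Libraries were set against each other by chi-square for every gene read 20 times or more in both together, sampling noise giving a mean of 1. This mean was 1.065 to 1.101 for library 1 with 2 and 3 with 4, which were summed, and 12.76 to 28.47 for other pairs of a genotype. After filterByExpr and TMM scaling, edgeR 4.0.16 in R 4.3.3 tested KO against WT (robust quasi-likelihood fit), with Benjamini-Hochberg adjustment over all genes and a threshold of 0.05. The SE is the absolute log2 fold change divided by the square root of the F statistic. Levels are CPM after TMM, also divided by transcript length, and log2 CPM used a prior count of 2. DESeq2 1.42.0 was an alternative, beside RLE scaling, no low-count filter, the replicate number as a block, and each library or sample left out. An exact permutation test of 2 against 2 samples cannot go below p = 0.333. Ratios of low counts use total counts as depth and carry 95% exact binomial bounds, for counting error only (scipy 1.17.1). Where KO held 0 reads, the ratio takes the WT reads as exact and carries no such bounds. Fits were first tested on simulated data.

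The members and lists were chosen with earlier results of these data known. Named genes were the members, the relatives, in each list up to 4 called genes of 1 CPM or more besides the 2 uncalled genes of highest level, and the 5 genes nearest to Spi1. RefSeq tables (GRCm38.p6) gave chromosomes, overlapping models and promoter sequences.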

Additional observations from a re-analysis of the deposited data

How the results depend on the processing

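With DESeq2 in place of edgeR, 3 members were called lower, 17 pathway genes lower and 6 higher, and 593 and 566 of all genes. Without a filter on low counts edgeR called 2 members lower, and 5 pathway genes lower and 1 higher. Of all genes it called 79 lower and 72 higher. The replicate number as a block left 0 members, 0 pathway genes lower and 0 higher, and 5 lower and 0 higher of all genes. Paired sample differences (B minus A) correlated across genes at r = -0.0814 between genotypes, so the numbers are not taken to pair the samples. Leaving out a library or sample gave 0 to 4 members lower, 0 to 28 pathway genes lower and 0 to 7 higher, and 0 to 989 lower and 0 to 768 higher of all genes. Single libraries left out gave 1 to 2 pathway genes lower and 0 to 1 higher, and 16 to 25 lower and 6 to 16 higher of all genes. Without WT sample A 769 lower and 768 higher of all genes were called, without WT sample B 989 and 685, and without either KO sample 0 and 0, where the lone sample is assumed to vary like the other group. RLE scaling changed no count by over 1.5 times. Some log2 fold changes of named genes turned sign: their ranges over left-out libraries, then over left-out samples, were -0.07 to -0.01 and -0.19 to 0.11 for Spic, 0.11 to 0.19 and -0.04 to 0.37 for Vav2, 0.01 to 0.05 and -0.07 to 0.12 for Laptm4b, -0.23 to -0.09 and -0.52 to 0.35 for Rac3, -0.08 to 0.05 and -0.16 to 0.12 for Rhog, -0.17 to 0.16 and -0.19 to 0.19 for Fcgr4, 0.01 to 0.45 and -0.11 to 0.51 for Fcgr1, 0.01 to 0.06 and -0.35 to 0.56 for Jun, 0.12 to 0.17 and -0.08 to 0.34 for Plcg2, -0.65 to -0.59 and -1.15 to 0.24 for Emb, and -0.03 to 0.04 and -0.19 to 0.19 for Itgam. Reversed values without a sample were -0.07 and -0.05 for Laptm4b, 0.35 and 0.02 for Rac3, -0.02 and -0.19 for Fcgr4, -0.35 and -0.28 for Jun. With the block Fcgr4 stood at -0.00051 and Itgam at -0.003. The cause was not tested. The depth limits Tyrobp, Ptprc, Rac2 and Fcgr3, with at most 37 reads per genotype.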
